A study of Homo sapiens with 24 samples.

Results

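The genes described here are MYC, MAX and the other members of their network, chosen by name: MYC, MYCL, MYCN, MAX, MXD1, MXD3, MXD4, MXI1, MNT and MLX. They are 10 of the 26249 genes in the deposited tables, and all 10 were found in every table. RNA was measured in 24 libraries from a pair of established human multiple myeloma lines, H929 and MM1S. Cells received YKL-5-124 (YKL below), which the series title places among inhibitors of CDK7, a kinase of the transcription and cell cycle machinery, or the vehicle DMSO. Lysis followed after 6 h or 24 h. The 8 groups of 3 libraries were H929 with YKL and H929 with DMSO, both labelled 83 nM, and MM1S with YKL and MM1S with DMSO, both labelled 98 nM, each at both times. The dose figure stands on the DMSO labels too, so line and dose cannot be told apart. All cultures were grown in RPMI medium with fetal bovine serum. Nothing in the labels says that replicates were separate cultures, and the spread that the p-values rest on may therefore be technical.

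MYC, MYCL and MYCN are transcription factors that bind DNA only as a pair with MAX, at the E-box CACGTG, and raise the transcription of genes for ribosome production, metabolism and growth. MXD1, MXD3, MXD4, MXI1 and MNT also pair with MAX at the same sites but recruit SIN3 and histone deacetylases, and so oppose MYC. MLX is the MAX-like partner of MLXIP (MondoA) and MLXIPL (ChREBP), which respond to glucose metabolites, and it can also pair with MXD1, MXD4 and MNT. MYC is a frequent target of rearrangement in myeloma, where its transcription depends on strong enhancers.

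The E-box was searched for in the RefSeq promoter windows of the members (GRCh38.p14, 250 bases before to 50 after a start), because it is the site that the members' own proteins bind. Windows were matched for 9 of the 10 members, 12 windows in all, and MYC was not among them. CACGTG, which reads the same on both strands, stood in 3 of the 12 windows, those of MXD4, MNT and MLX. Among all 35116 windows of this length, 2548 held it (7.26%). The 250 bases before the start are shown 5′ to 3′ on the gene's strand, with the E-box in capitals, because MXD4 and MLX had the largest rescaled changes under YKL in H929 at 24 h among the members, described below, and MNT is the other member with the motif.
MXD4: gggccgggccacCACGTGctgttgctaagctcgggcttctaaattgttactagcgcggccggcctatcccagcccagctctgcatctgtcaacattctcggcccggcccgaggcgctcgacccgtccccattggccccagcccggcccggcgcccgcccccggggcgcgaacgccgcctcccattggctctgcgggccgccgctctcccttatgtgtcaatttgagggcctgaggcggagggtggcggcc
MNT: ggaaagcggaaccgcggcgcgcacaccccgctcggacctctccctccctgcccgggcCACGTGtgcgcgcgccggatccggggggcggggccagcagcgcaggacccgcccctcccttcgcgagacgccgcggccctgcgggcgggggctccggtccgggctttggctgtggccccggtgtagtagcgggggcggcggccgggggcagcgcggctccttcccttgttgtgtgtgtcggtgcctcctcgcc
MLX: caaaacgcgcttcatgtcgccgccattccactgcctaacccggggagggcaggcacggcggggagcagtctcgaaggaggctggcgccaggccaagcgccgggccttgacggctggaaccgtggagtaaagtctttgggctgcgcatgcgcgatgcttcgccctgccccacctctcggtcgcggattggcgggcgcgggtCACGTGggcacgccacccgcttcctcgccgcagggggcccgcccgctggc
The windows lie at chr4:2262110-2262359 (minus strand) for MXD4, chr17:2401061-2401310 (minus strand) for MNT and chr17:42566850-42567099 (plus strand) for MLX. The E-box began 238 bases before the start in MXD4, 193 in MNT and 50 in MLX, counted from the start that defines each window. The last bases of the full window, after that start, were found in 1 of 5 annotated transcripts of MXD4, 2 of 9 of MNT and 8 of 11 of MLX. Whether those transcripts begin at that start was not checked. These letters describe the windows and were not tested for binding in these cells.

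Values are FPKM, reads scaled by transcript length and by library, as the authors deposited them. The tables also list ERCC spike-in RNA, whose median level was nearly equal in all libraries (-0.042 to 0.090 on the log2 scale around their mean), so a library with less RNA relative to the spike-ins is lower across its genes. The ratio of gene to spike-in signal was 2.52 to 17.1 over the libraries, with 4.53 to 8.98 in H929 YKL at 24 h, 12.6 to 14.4 in H929 DMSO at 24 h, 2.52 to 3.01 in MM1S YKL at 24 h and 2.77 to 5.72 in MM1S DMSO at 24 h. Fewer cells and less RNA per cell cannot be told apart on this scale. Changes were therefore also computed after median-of-ratios rescaling, which removes the change shared by most genes, and values below that are not marked as rescaled are as deposited. The median log2 change of all 12418 genes tested under YKL was -0.06 at 6 h and -0.46 at 24 h in H929, and -0.29 and -0.12 at the same times in MM1S. Rescaled, it was 0.07 and 0.13 in H929 and 0.05 and 0.05 in MM1S. MM1S YKL 6 h replicate 2 and MM1S DMSO 24 h replicate 1 had unevenly measured spike-ins and a less certain scale. All 10 plasma cell markers listed passed the filter. As deposited, 1, 4, 1 and 1 of them were called lower and none higher in H929 at 6 h and 24 h and in MM1S at 6 h and 24 h of YKL, against 1.16%, 35.4%, 10% and 6.77% of all genes called lower. Rescaled, 2, 1, 1 and 1 were lower and 1, 4, 1 and 5 higher in the same order, against 4.19%, 12.5%, 7.21% and 13.3% of all genes lower and 5.11%, 20.8%, 8.25% and 14.4% higher. Those higher in H929 at 24 h were SDC1, PRDM1, IRF4 and POU2AF1 (0.48 to 1.07). FGFR3 marked H929 (group means of 23.8 to 71.7 FPKM, against 0.144 to 0.476 in MM1S), whereas MAF, listed as a marker of MM1S, was present in both lines (16.2 to 20.7 FPKM in H929 and 16.4 to 47.7 in MM1S). The other listed H929 marker, WHSC1 (NSD2), was measured in MM1S too, where it was called lower with YKL at 6 h (-0.82) and 24 h (-1.06). Under YKL, FGFR3 was called higher in H929 at 24 h (1.48, 2.28 rescaled), as was WHSC1 only rescaled (1.36). MAF was called higher with YKL in MM1S at 24 h (0.85) and in H929 at 24 h only rescaled (0.84). CD38 was low in MM1S (0.406 to 1.83 FPKM). Of the T cell, monocyte and epithelial or fibroblast markers, 2 of 6 listed each passed the filter (the T cell list includes TRAC, which was not matched in the tables), and in YKL comparisons only S100A8 and KRT18 among them were called as deposited. The monocyte marker S100A8 rose in H929 at 24 h (log2 change 1.30 ± 0.27, 1.51 rescaled) and the epithelial marker KRT18 fell (-0.84 ± 0.29, -0.047 rescaled). Only rescaled, the monocyte marker CD68 was called higher there (0.68, adjusted p 0.0279) and the T cell marker CD3G in MM1S at 24 h (1.03, adjusted p 0.00499). Their part in the results below was not tested.

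Log2 changes are of FPKM + 1 with their standard errors, and a gene is called where limma's Benjamini-Hochberg adjusted p over all genes tested is under 0.05. MYCN did not pass the filter (1 FPKM in at least 3 libraries), which left 9 members tested. In H929 at 6 h of YKL, 0 of 9 members were called, where limma called 2.19% of all genes (1.16% lower). At an unadjusted limma p under 0.05, 3 members passed there. The share of all genes at that threshold was not computed, so this count is not a result. Rescaled, 4 were called, with 3 higher and 1 lower (9.3% of all genes, 5.11% higher and 4.19% lower). At 24 h in H929, 5 of 9 were called, 1 higher and 4 lower (38.1% of all genes, 2.67% higher and 35.4% lower), and 5 rescaled, 3 higher and 2 lower (33.3%, 20.8% higher and 12.5% lower). In MM1S at 6 h, 1 member was called, lower (11% of all genes, 10% lower), and 1 rescaled, higher (15.5%, 8.25% higher and 7.21% lower). At 24 h in MM1S, 1 was called, lower (7.46%, 6.77% lower), and 3 rescaled, 2 higher and 1 lower (27.8%, 14.4% higher and 13.3% lower). With 9 members these shares are not a result about the network as a whole, and what follows is about single genes.

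MM1S cells expressed MYC, whereas in H929 cells it lay close to the floor of these tables. MYC was at 3.18 to 45.1 FPKM in the 12 MM1S libraries and at 0.073 to 0.720 FPKM in the 12 H929 libraries, of which 0 reached 1 FPKM. Genes without signal held small values in these tables, most often 0.057 to 0.163 FPKM depending on the library, and MYC exceeded 3 times that value in 6 of 12 H929 libraries. Among DMSO libraries, MYC in H929 was lower than in MM1S by a log2 difference of -3.35 ± 0.24 (limma adjusted p 2.14e-11, and still called in all 12 fits that left out a DMSO library), and of -3.88 ± 0.18 rescaled. MYC passed the filter only through its MM1S libraries, so this test is no support beyond the ranges above. With H929 near the floor, the size of the difference also depends on the 1 FPKM added before the log. In that comparison of the lines, 5 of 9 members were called, MAX, MXI1, MNT and MLX higher in H929 and MYC lower, where limma called 72% of all genes (61.7% higher and 10.3% lower). Rescaled, 7 were called, MAX higher and MYC, MYCL, MXD1, MXD3, MXD4 and MXI1 lower (67.7%, 26.6% higher and 41.1% lower). The libraries read 3′ ends, so these values concern transcripts that end within the counted gene model. Whether a MYC transcript with another 3′ end was missed in H929 could not be checked without reads.

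Neither MYCL nor MYCN was called higher in H929 than in MM1S. MYCL, the family member first found in lung cancer, was at 0.353 to 3.41 FPKM in H929 and 0.663 to 2.96 FPKM in MM1S. With DMSO, H929 averaged 0.962 ± 0.544 FPKM at 6 h and 1.52 ± 0.149 at 24 h, and MM1S 1.51 ± 0.516 and 1.79 ± 1.15 (SD, n = 3 each). These ranges overlapped, and the line difference was -0.22 ± 0.20 (limma adjusted p 0.321), or -0.86 ± 0.16 rescaled (adjusted p 5.82e-05). MYCN, the member named for neuroblastoma, was at 0.0989 to 0.889 FPKM in H929 and 0.0703 to 1.36 FPKM in MM1S, with 2 of 24 libraries at 1 FPKM or more, both from MM1S. H929 with YKL at 6 h had 0.343, 0.152 and 0.889 FPKM of MYCN, against 0.0989, 0.111 and 0.511 FPKM with DMSO, and these overlapped. In MM1S at 6 h MYCN was at 0.111, 0.158 and 0.230 FPKM with YKL, all below the 1.36, 0.278 and 0.841 FPKM with DMSO, but overlapped rescaled. At 24 h its groups overlapped on both scales in both lines, and MYCN was too low to be tested. The FPKM scale divides by gene length, which suits 3′ reads poorly, so the order of MYC, MYCL and MYCN within a line is approximate.

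Transcripts around MYC were few. PVT1, the noncoding RNA beside MYC, was the only 1 of 4 listed neighbours to pass the filter. It averaged 4.40 ± 0.787 FPKM in H929 with YKL and 3.38 ± 1.95 with DMSO at 6 h, and 5.56 ± 2.37 FPKM in MM1S with YKL and 6.05 ± 1.44 with DMSO. PVT1 was not called in any of the 4 YKL comparisons on either scale. The line difference of PVT1 with DMSO was 0.05 ± 0.24 (limma adjusted p 0.873) as deposited and -0.81 rescaled (adjusted p 0.000548).

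Under YKL, MYC fell in MM1S at 6 h. The YKL libraries had 18.7, 15.3 and 9.04 FPKM, against 45.1, 40.2 and 18.9 FPKM with DMSO, so the highest YKL library lay just under the lowest DMSO library, a separation that 39.7% of all genes had there. The log2 change was -1.18 ± 0.34 (limma adjusted p 0.0273). Rescaled, the values were 20.5, 19.3 and 11.1 FPKM with YKL, against 36.8, 32.5 and 18.2 with DMSO, the groups overlapped, and the change was -0.73 ± 0.25 with an adjusted p of 0.0543, which misses the threshold. The call was lost without MM1S DMSO 6 h replicate 1 (-0.95, adjusted p 0.139) or replicate 2 (-1.03, 0.106), and without MM1S YKL 6 h replicate 2 (-1.25, 0.0562) or replicate 3 (-0.90, 0.152). Over all alternatives the adjusted p was 0.00923 to 0.152, and the change was negative in each.

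At 24 h the MM1S groups overlapped, with 7.92, 5.93 and 7.31 FPKM of MYC with YKL and 3.18, 11.3 and 4.56 FPKM with DMSO. The change was 0.28 ± 0.34 (limma adjusted p 0.757) and 0.58 ± 0.25 rescaled (adjusted p 0.0953). The difference of the 24 h from the 6 h response in MM1S was 1.46 ± 0.47 (adjusted p 0.299, in a comparison with 0 members and 0.0805% of all genes called). Rescaled it was 1.32 ± 0.36 (adjusted p 0.0215), and MYC and MXD3 were the 2 members called, against 10.6% of all genes. Without MM1S DMSO 24 h replicate 2, it was called as deposited too (1.91, adjusted p 0.0234).

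With DMSO alone, MYC in MM1S was lower at 24 h than at 6 h. The 24 h libraries held 3.18, 11.3 and 4.56 FPKM and the 6 h libraries 45.1, 40.2 and 18.9 FPKM, with no overlap (51.7% of all genes). MYC was lower at 24 h by a log2 change of -2.35 ± 0.34 (limma adjusted p 7.9e-05), and of -1.29 ± 0.25 rescaled (adjusted p 0.00285). In this comparison 56.2% of all genes were called, nearly all lower (56%), and 7 of 9 members, all lower, with MYCL and MXD1 not called. Rescaled, 4 members were called, where 15.6% of all genes were (10.3% higher and 5.39% lower), MYC and MLX (-0.52, adjusted p 0.0234) lower and MYCL (0.82, 0.0173) and MXI1 (0.40, 0.0357) higher. MAX, MXD3, MXI1 and MNT thus turned sign on rescaling (to 0.21, 0.13, 0.40 and 0.033), and rescaled without the libraries of uneven spike-ins, a setting chosen after seeing the data, 1 member was called, MYC (-1.03, adjusted p 0.0196). Without MM1S DMSO 24 h replicate 3, 3 members were called, with MAX at -0.69 (adjusted p 0.0986), MXD3 at -0.83 (0.0551), MXI1 at -0.50 (0.170) and MNT at -0.57 (0.0853). MAX was also lost without MM1S DMSO 24 h replicate 1 (-0.74, 0.0695), MNT without MM1S DMSO 6 h replicate 1 (-0.62, 0.0638), and MXI1 without any 1 of 5 libraries (-0.50 to -0.73). In H929, 0 members were called between the times with DMSO on either scale (0.145% of all genes, 1.02% rescaled).

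In H929 the values of MYC stayed close to the floor under YKL. At 6 h they were 0.132, 0.275 and 0.161 FPKM with YKL and 0.337, 0.215 and 0.697 FPKM with DMSO. At 24 h they were 0.210, 0.073 and 0.614 FPKM with YKL and 0.720, 0.327 and 0.503 FPKM with DMSO. Groups overlapped at both times, and no difference was detectable so near the floor. Ordered by mean, MYC ran from MM1S DMSO at 6 h (34.7 ± 13.9 FPKM) over MM1S YKL at 6 h (14.4 ± 4.91), MM1S YKL at 24 h (7.05 ± 1.02) and MM1S DMSO at 24 h (6.36 ± 4.37) to the 4 H929 groups (0.189 to 0.517). As deposited, MM1S DMSO at 24 h overlapped MM1S YKL at both times. Among the H929 groups, YKL at 6 h (0.132 to 0.275 FPKM) lay below DMSO at 24 h (0.327 to 0.720 FPKM), and every other pair overlapped. A difference of the change of MYC between the lines was not called by limma at 6 h (0.94 ± 0.47, adjusted p 0.509) or 24 h (-0.52 ± 0.47, adjusted p 0.554), where 0 members were called (0.169% and 1.36% of all genes). Rescaled, 0 members were called at 6 h (1.14%) and 3 at 24 h (12.4%), namely MYCL, MAX and MXD3. For MYC, this comparison cannot decide whether the lines respond differently. Its H929 values lie near the floor, and with 1 FPKM added before the log they can hardly show a fall.

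**Figure D1:**
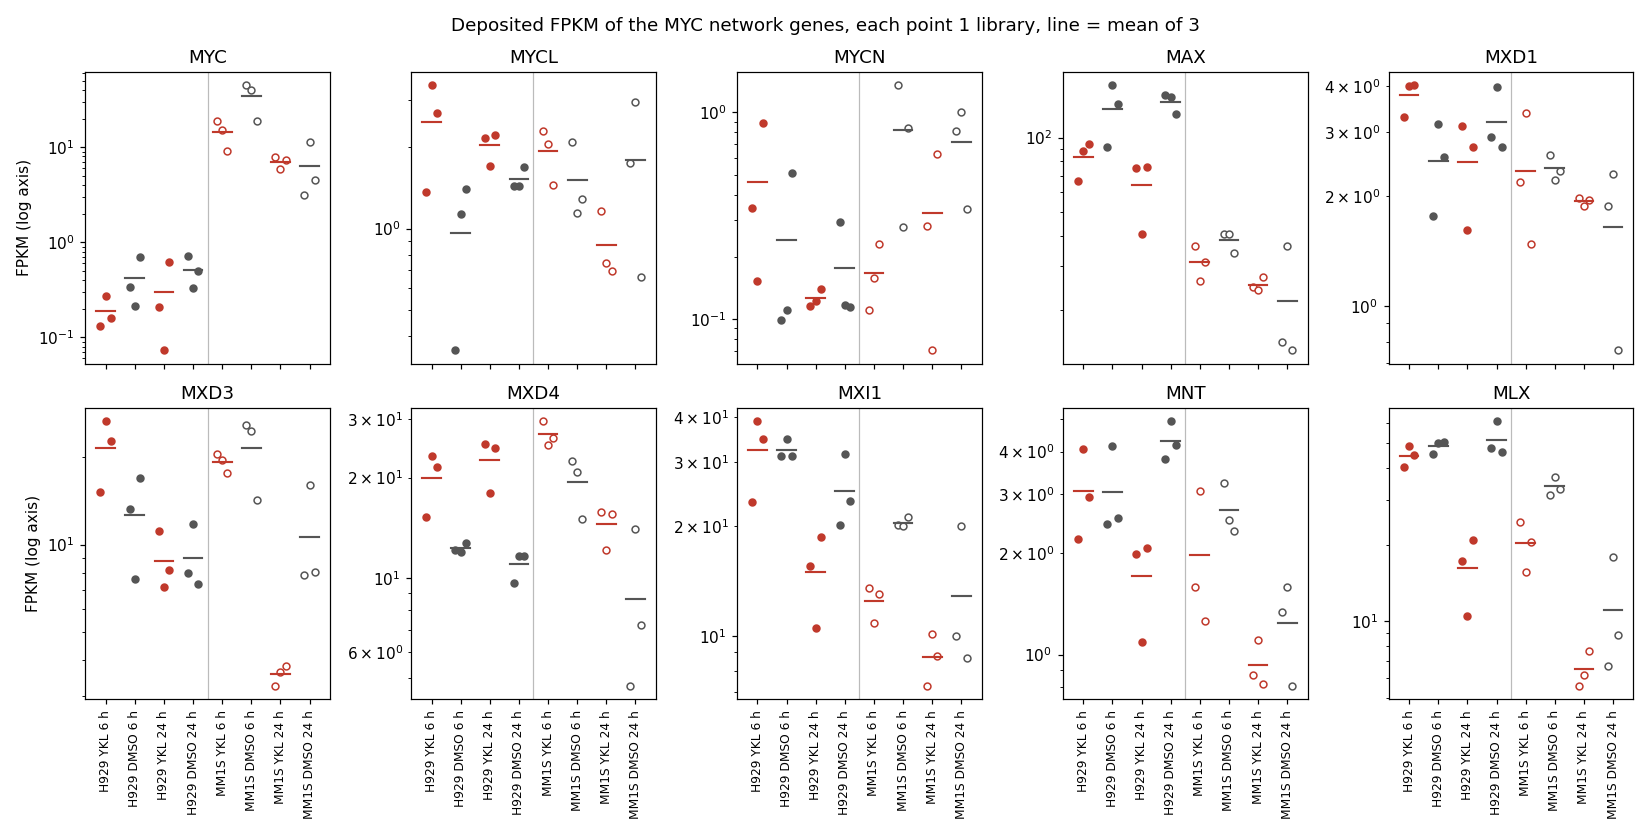
Deposited FPKM (log axis) of the 10 network genes in the 8 groups, each point 1 library and each line the mean of 3, red for YKL and grey for DMSO, filled for H929 and open for MM1S. MYC lies at 3.18 to 45.1 FPKM in MM1S and at 0.073 to 0.720 FPKM in H929, while MAX lies at 40.7 to 163 FPKM in H929 and at 13.7 to 40.7 FPKM in MM1S.

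MAX, the obligate partner of MYC, had its highest levels in the line with MYC under 1 FPKM in these 3′ end values. With DMSO, H929 had 91.2, 163 and 137 FPKM at 6 h and 149, 146 and 124 FPKM at 24 h, and MM1S had 40.7, 40.6 and 33.9 FPKM at 6 h and 14.8, 36.4 and 13.7 FPKM at 24 h. Every H929 DMSO library was above every MM1S DMSO library, a separation whose share over all genes was not computed. Limma called 61.7% of all genes higher in H929 there (26.6% rescaled). MAX in H929 was higher by 2.24 ± 0.22 (limma adjusted p 3.7e-09) as deposited and by 1.03 ± 0.09 rescaled (adjusted p 1.54e-09), while the median gene differed by 0.71 and -0.18.

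Under YKL, rescaled MAX moved in opposite directions in H929 and MM1S at 24 h. After 24 h in H929, MAX was at 75.2, 40.7 and 76.3 FPKM with YKL, against 149, 146 and 124 FPKM with DMSO, with no overlap (49.2% of all genes). It fell by 1.16 ± 0.31 on the log2 scale (limma adjusted p 0.00484), and by 0.33 ± 0.12 rescaled (adjusted p 0.0411). At 6 h in H929 the values were 66.8, 88.5 and 94.5 FPKM with YKL and 91.2, 163 and 137 FPKM with DMSO. These overlapped narrowly and gave -0.62 ± 0.31 (adjusted p 0.347), called rescaled (-0.42 ± 0.12, adjusted p 0.0342).

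In MM1S at 24 h, MAX was at 24.7, 24.1 and 27.2 FPKM with YKL and at 14.8, 36.4 and 13.7 FPKM with DMSO. The DMSO values spanned those with YKL, and the change of 0.35 ± 0.31 was not called (limma adjusted p 0.616). Rescaled, it was 62.8, 57.7 and 60.3 FPKM with YKL and 33.3, 45.0 and 37.5 with DMSO, with the groups apart (35.6% of all genes), and MAX rose by 0.64 ± 0.12 (adjusted p 0.000458). The difference of the responses between H929 and MM1S at 24 h was -1.52 ± 0.43 (adjusted p 0.0708), and -0.97 ± 0.17 rescaled (adjusted p 0.00112). As deposited it was called without H929 YKL 24 h replicate 3 (-1.67, adjusted p 0.0396) and without MM1S DMSO 24 h replicate 2 (-1.95, 0.00258).

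MXD4, a repressor linked to quiescence and differentiation, was the only member whose mean change was positive in all 4 YKL comparisons as deposited. Rescaled, the change of MXD1 was positive in all 4 too (0.27 to 0.52), though not called. At 24 h in H929 it was at 25.1, 18 and 24.6 FPKM with YKL, against 9.67, 11.6 and 11.6 FPKM with DMSO. Every YKL library exceeded every DMSO library (49.2% of all genes had groups apart), and MXD4 rose by 0.97 ± 0.27 (limma adjusted p 0.00674), and by 1.72 ± 0.17 rescaled (adjusted p 2.96e-07). At 6 h the values were 15.2, 23.1 and 21.5 FPKM with YKL and 12.1, 12.0 and 12.7 FPKM with DMSO. These did not overlap, but the change of 0.64 ± 0.27 was called only rescaled (0.79 ± 0.17, adjusted p 0.00709, against 0.239 as deposited).

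In MM1S, MXD4 was called only on the rescaled values. At 6 h it was at 29.5, 25.0 and 26.3 FPKM with YKL, against 22.5, 20.8 and 15.1 FPKM with DMSO, with no overlap and a change of 0.46 ± 0.27 (limma adjusted p 0.269). At 24 h it was at 15.8, 12.1 and 15.5 FPKM with YKL and 4.73, 14 and 7.23 FPKM with DMSO, where the highest DMSO library lay among the YKL libraries (17.9% of all genes had groups apart), and the change was 0.79 ± 0.27 (adjusted p 0.0756). Without that library, MM1S DMSO 24 h replicate 2, it was called (1.16, adjusted p 0.00315). Rescaled, MXD4 rose in MM1S by 0.92 ± 0.17 at 6 h (adjusted p 0.00145) and by 1.10 ± 0.17 at 24 h (adjusted p 7.62e-05). The rescaled groups of MXD4 did not overlap in any of the 4 comparisons, which also held for 36.5% of all genes in the early and 50.6% in the late H929 comparison, and for 30.2% and 35.6% in those of MM1S. The responses of the lines did not differ past the threshold (0.18 ± 0.38 at 24 h, adjusted p 0.814). In H929 the 24 h response exceeded that at 6 h by 0.93 rescaled (adjusted p 0.0182, where 10.4% of all genes were called), and by 0.33 ± 0.38 as deposited (adjusted p 0.611).

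MXD3, a repressor expressed mainly in dividing cells, fell in MM1S at 24 h and did not in H929. In MM1S at 24 h it was at 3.25, 3.64 and 3.81 FPKM with YKL, against 7.84, 16.1 and 8.02 FPKM with DMSO. The groups were apart, and MXD3 fell by 1.28 ± 0.30 (limma adjusted p 0.00881), and by 1.13 ± 0.22 rescaled (adjusted p 0.000741). The call was lost without MM1S DMSO 24 h replicate 2 (-0.97, adjusted p 0.0627). In H929 at 24 h it was at 11.1, 7.12 and 8.18 FPKM with YKL and 7.99, 11.8 and 7.30 FPKM with DMSO, with overlap and a change of -0.03 ± 0.30 (adjusted p 0.961), whereas rescaled it rose by 0.71 ± 0.22 (adjusted p 0.0192). The difference of the 24 h responses was 1.26 ± 0.43 (adjusted p 0.12) and 1.84 ± 0.32 rescaled (adjusted p 0.000994).

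At 6 h, MXD3 in H929 had 15.2, 26.7 and 22.8 FPKM with YKL, against 13.3, 7.58 and 17.0 FPKM with DMSO, and the groups overlapped by 1 library. The change of 0.76 ± 0.30 was not called (limma adjusted p 0.215) and was called rescaled (0.89 ± 0.22, adjusted p 0.0157). In MM1S at 6 h, 20.5, 19.6 and 17.7 FPKM with YKL lay within the DMSO range of 14.3 to 25.8 FPKM. Rescaled, the groups were apart (30.2% of all genes), at 22.4, 24.7 and 21.8 FPKM with YKL and 21.1, 19.9 and 13.8 with DMSO. That change of 0.34 ± 0.22 was not called (limma adjusted p 0.349). The 24 h response of MM1S was lower than its 6 h response by 1.17 ± 0.43 as deposited (adjusted p 0.398), and the rescaled difference of -1.47 was called (adjusted p 0.00504).

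MXD1, which rises as cells of many lineages differentiate, was low and was not called under YKL on either scale. In H929 at 6 h it was at 3.29, 4.01 and 4.02 FPKM with YKL, above the 1.76, 3.16 and 2.56 FPKM with DMSO (0.47 ± 0.24, limma adjusted p 0.381). Such separation was found in 21.1% of all genes there. In the other YKL comparisons its groups overlapped as deposited, at 0.758 to 3.97 FPKM. Rescaled, they stood apart at 24 h, higher with YKL, in H929 (0.30, adjusted p 0.261) and in MM1S (0.50, 0.0590), as did 50.6% and 35.6% of all genes in either direction. MYCL was as low, at 1.36, 3.41 and 2.7 FPKM with YKL and 0.353, 1.13 and 1.4 FPKM with DMSO in H929 at 6 h, and, with the groups apart, 2.17, 1.71 and 2.22 FPKM with YKL and 1.44, 1.43 and 1.70 FPKM with DMSO at 24 h. MYCL was called higher in H929 only rescaled, by 0.72 ± 0.22 at 6 h (adjusted p 0.0439) and 0.72 ± 0.22 at 24 h (adjusted p 0.0159), and these levels are near the filter. In MM1S, MYCL was at 1.45 to 2.31 FPKM with YKL and 1.14 to 2.10 FPKM with DMSO at 6 h and was not called. At 24 h it was at 1.16, 0.742 and 0.692 FPKM with YKL and 1.75, 2.96 and 0.663 FPKM with DMSO, which overlapped (-0.50 ± 0.28, adjusted p 0.349), and it was called without MM1S DMSO 24 h replicate 3 (-0.83, adjusted p 0.0414). The line difference of the 24 h response of MYCL was 1.12 ± 0.31 rescaled (adjusted p 0.0224) and 0.77 ± 0.39 as deposited (0.274).

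MXI1 and MNT, the repressors with broad expression, fell as deposited in H929 after 24 h of YKL. MXI1 was at 15.6, 10.5 and 18.7 FPKM with YKL, against 20.1, 31.5 and 23.5 FPKM with DMSO, without overlap (-0.72 ± 0.27, limma adjusted p 0.0387). Rescaled, the change was 0.075 ± 0.13 (adjusted p 0.704). The call of MXI1 was lost without H929 DMSO 24 h replicate 2 (-0.55, adjusted p 0.181) or replicate 3 (-0.75, 0.065) and without H929 YKL 24 h replicate 1 (-0.77, 0.0577) or replicate 2 (-0.50, 0.213).

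MNT in H929 at 24 h was at 1.99, 1.09 and 2.07 FPKM with YKL, against 3.81, 4.93 and 4.19 FPKM with DMSO, and the groups stood apart. It fell by 0.98 ± 0.24 (limma adjusted p 0.00277), and the rescaled change of -0.36 ± 0.19 was not called (adjusted p 0.168). At 6 h in H929, 2.20, 4.06 and 2.93 FPKM with YKL overlapped 2.44, 4.15 and 2.54 FPKM with DMSO. In MM1S neither gene was called: MXI1 at 6 h was at 13.5, 10.8 and 13 FPKM with YKL, below the 20.2, 20.0 and 21.2 FPKM with DMSO (-0.68 ± 0.27, adjusted p 0.105, -0.24 rescaled), and MNT at 24 h was at 0.818 to 1.10 FPKM with YKL and 0.805 to 1.59 FPKM with DMSO. MGA, another MAX partner and a subunit of a repressive Polycomb complex, fell in H929 at 24 h by 0.76 ± 0.20 (adjusted p 0.00462), averaging 1.30 ± 0.539 FPKM with YKL and 2.83 ± 0.237 with DMSO, and was not called rescaled (-0.21).

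**Figure D2:**
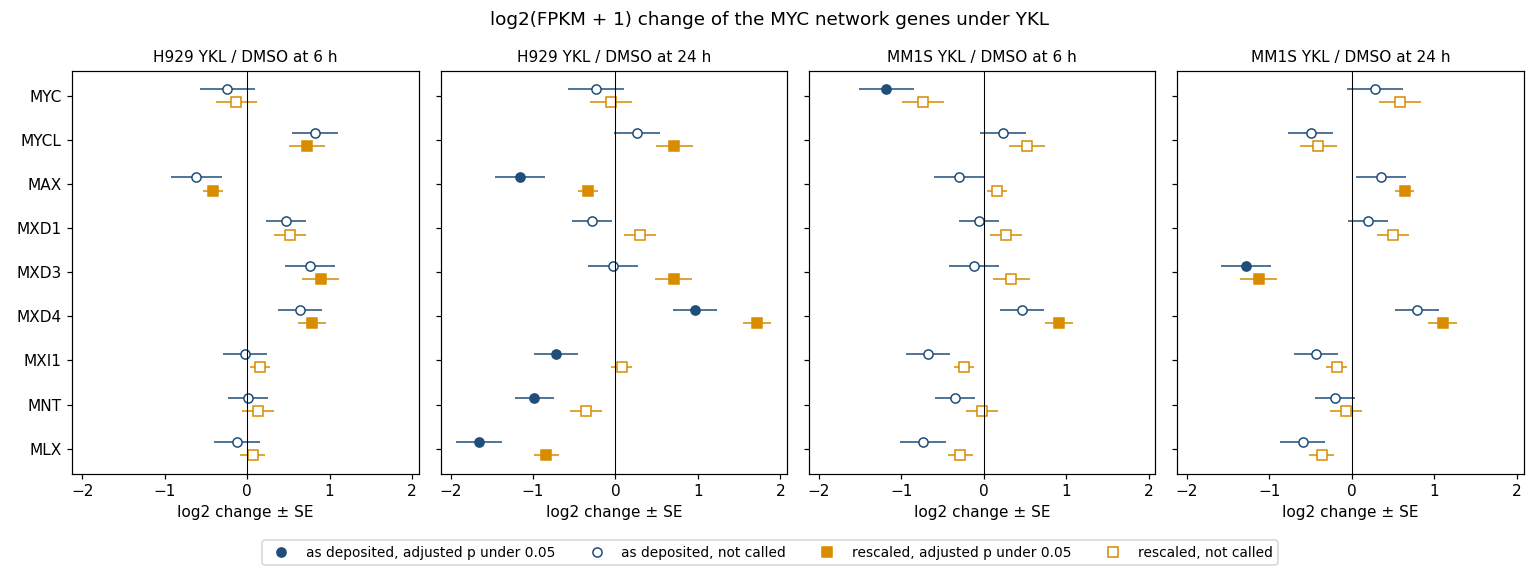
Log2(FPKM + 1) change under YKL for the 9 members tested, with standard errors, in each line and at each time, as deposited (circles) and rescaled (squares), filled where limma's adjusted p is under 0.05. MXD4 lies right of 0 in all 4 panels, by 0.46 to 0.97 as deposited and 0.79 to 1.72 rescaled, and MYC lies left of 0 by 1.18 in MM1S at 6 h.

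MLX, the MAX-like factor, had the largest change of the 9 members under YKL as deposited. In H929 at 24 h it was at 17.3, 10.5 and 20.8 FPKM with YKL, against 47.7, 61.2 and 46.0 FPKM with DMSO. The groups were far apart, and MLX fell by 1.65 ± 0.28 (limma adjusted p 0.000102). The calls of MAX, MXD4, MNT and MLX in this comparison held in 6 of 6 fits without 1 library. Rescaled, MLX was at 15.9, 15.7 and 16 FPKM with YKL and 27.7, 31.5 and 28.2 FPKM with DMSO, a fall of 0.84 ± 0.15 (adjusted p 0.000182). At 6 h the H929 values were 40.4, 48.7 and 44.8 FPKM with YKL and 45.4, 50.2 and 50.6 FPKM with DMSO, which overlapped (-0.13 ± 0.28, adjusted p 0.911).

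The H929 response of MLX at 24 h was lower than that at 6 h by 1.53 ± 0.39 (limma adjusted p 0.0238), the only 1 of the 9 members called in this comparison, where 6.47% of all genes were called (-0.90 rescaled, adjusted p 0.00746). This call was lost without H929 DMSO 6 h replicate 1 (-1.48, adjusted p 0.0637), H929 YKL 6 h replicate 2 (-1.46, 0.0693) or replicate 3 (-1.52, 0.0608), H929 DMSO 24 h replicate 2 (-1.40, 0.0798) or H929 YKL 24 h replicate 2 (-1.26, 0.0772). In MM1S, MLX was at 24.6, 15.6 and 20.5 FPKM with YKL and 31.3, 37.0 and 33.2 FPKM with DMSO at 6 h, apart but not called (-0.73 ± 0.28, adjusted p 0.0895), and rescaled they overlapped (-0.28). At 24 h it was at 5.56, 6.18 and 7.66 FPKM with YKL and 6.65, 17.9 and 8.79 FPKM with DMSO, which overlapped (-0.60 ± 0.28, adjusted p 0.236, -0.37 rescaled). The line difference of the 24 h response was -1.05 ± 0.39 (adjusted p 0.148), so a difference between H929 and MM1S was not shown, and it was called only without MM1S DMSO 24 h replicate 2 (-1.43, adjusted p 0.00701). With DMSO alone, MLX in H929 exceeded that in MM1S by 1.37 ± 0.20 (adjusted p 1.53e-06) but by 0.19 ± 0.10 rescaled (adjusted p 0.123).

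MLXIP, the MLX partner that senses glucose metabolites in most tissues, was measured in both lines, and MLXIPL, its counterpart in liver and fat, was not above the floor (group means of 0.0816 to 0.235 FPKM). MLXIP averaged 9.50 ± 3.64 FPKM with YKL and 7.43 ± 0.644 with DMSO in H929 at 24 h, and was called higher only rescaled (0.96, adjusted p 0.000188). In MM1S at 24 h it averaged 2.14 ± 0.321 FPKM with YKL and 1.65 ± 0.854 with DMSO (0.62 rescaled, adjusted p 0.00877). Of 4 listed targets of MLX heterodimers, TXNIP, an inhibitor of glucose uptake and a well-known MondoA target, rose at 24 h in both lines. TXNIP averaged 130.2 ± 24.9 FPKM with YKL and 53.5 ± 10.4 with DMSO in H929 (log2 change 1.27 ± 0.30, adjusted p 0.00238, 2.09 rescaled), and 229.8 ± 11.2 FPKM with YKL and 126 ± 82.8 with DMSO in MM1S (1.05 ± 0.30, adjusted p 0.0348, 1.33 rescaled), where the groups overlapped as deposited. At 6 h TXNIP was called only in MM1S and only rescaled (0.71, adjusted p 0.00197). ARRDC4, a relative of TXNIP, was not called. HK2, the first enzyme of glycolysis, fell in H929 at 24 h (-1.36 ± 0.31, -0.60 rescaled), and KLF10, a repressor induced by TGF-β, fell in MM1S at 6 h (-0.88 ± 0.28, not called rescaled). In H929 at 24 h KLF10 was called higher only rescaled (0.97, limma adjusted p 0.00178).

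Ratios between members within a library do not depend on the library scale. They were chosen after the values were seen and carry no test. The log2 ratio of MXD4 to MAX was -2.07 ± 0.11 with YKL and -3.37 ± 0.43 with DMSO in H929 at 6 h, and -1.46 ± 0.25 with YKL and -3.67 ± 0.27 with DMSO at 24 h (SD, n = 3 each). In MM1S it was -0.20 ± 0.12 with YKL and -1.0 ± 0.16 with DMSO at 6 h, and -0.81 ± 0.17 with YKL and -1.32 ± 0.37 with DMSO at 24 h. Every YKL library thus had more MXD4 per MAX than every DMSO library of the same line and time, except in MM1S at 24 h, where the highest DMSO library lay among the YKL libraries. The ratio of MYC to MAX in MM1S was -1.17 ± 0.54 with YKL and -0.24 ± 0.53 with DMSO at 6 h, with overlap, and -1.85 ± 0.20 and -1.83 ± 0.34 at 24 h. The ratio of MXD4 to MYC in MM1S was 0.97 ± 0.50 with YKL and -0.76 ± 0.37 with DMSO at 6 h, and 1.04 ± 0.04 with YKL and 0.51 ± 0.19 with DMSO at 24 h, apart at both times. At 6 h the repressor was thus the more abundant by FPKM with YKL and MYC the more abundant with DMSO, with the limit that FPKM compares 3′ reads of different genes only roughly.

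**Figure D3:**
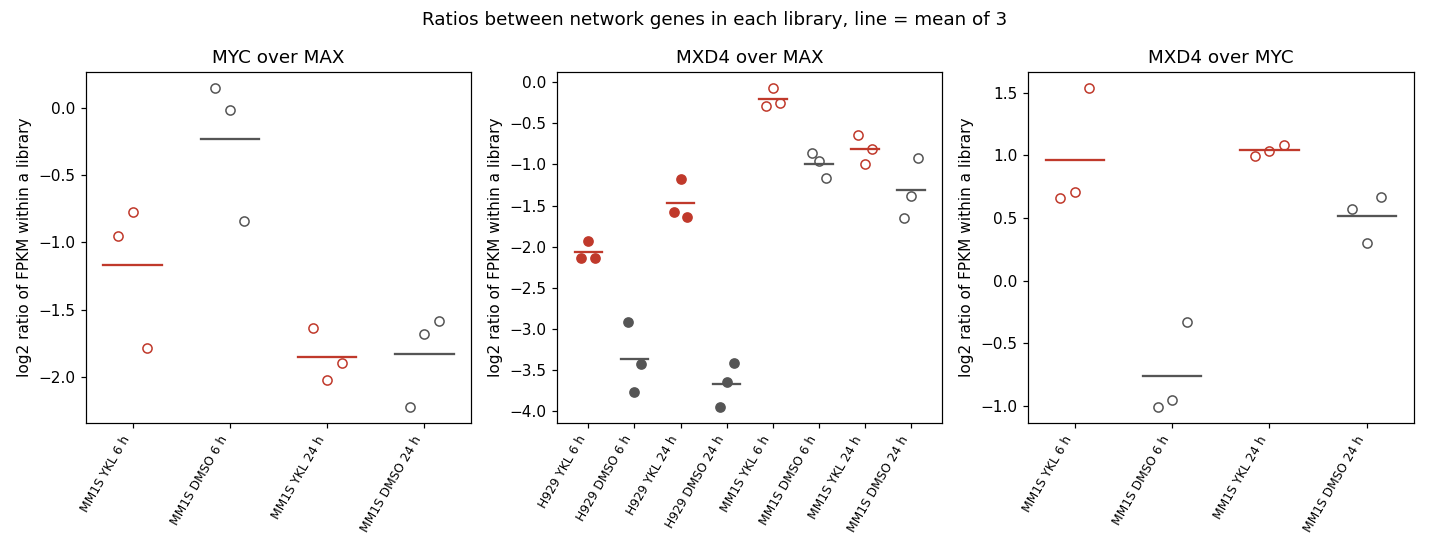
Log2 ratio of FPKM between members in each library, each point 1 library and each line the mean of 3, red for YKL and grey for DMSO, filled for H929 and open for MM1S. MXD4 over MYC in MM1S at 6 h lies above 0 in the 3 YKL libraries (0.66 to 1.54) and below 0 in the 3 DMSO libraries (-1.0 to -0.33).

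Most of the listed cofactors that MYC recruits fell in H929 at 24 h as deposited. Of 12 activating cofactors tested (of 13 listed), 0 were called in H929 at 6 h, 10 fell at 24 h (4 rescaled), against 35.4% and 12.5% of all genes called lower, and in MM1S 3 fell at 6 h (3 rescaled) and 1 at 24 h (2 fell and 1 rose rescaled), against 10% and 6.77% of all genes lower (7.21% and 13.3% rescaled). RUVBL1, an ATPase of the INO80 and TIP60 complexes, averaged 37.3 ± 6.44 FPKM with YKL and 129 ± 19.9 with DMSO in H929 at 24 h (-1.76 ± 0.27, -0.93 rescaled). ACTL6A, an actin-related subunit of SWI/SNF and TIP60, fell in H929 at 24 h (-1.37), in MM1S at 6 h (-1.15) and in MM1S at 24 h (-1.06), and each of these calls held rescaled (-0.58, -0.71 and -0.91). HCFC1, a host cell factor that binds MYC, fell in H929 at 24 h (-1.38 ± 0.28, -0.58 rescaled), and the acetyltransferase CREBBP and the SWI/SNF subunit SMARCB1 fell in MM1S at 6 h (-0.83 and -1.12, -0.47 and -0.67 rescaled).

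Another list held corepressors used by the MXD proteins together with ZBTB17 (MIZ1), the factor through which MYC represses genes, and all 11 of its genes were tested. In H929 at 24 h, 3 fell, namely HDAC1, HDAC2 and SAP18 (-0.68, -0.85 and -0.89), against 35.4% of all genes called lower, a share near that of the list. Rescaled, none of these was called (0.16, -0.079 and -0.060) and 5 others rose, among them ZBTB17 (0.61, adjusted p 0.0144) and the corepressors SIN3B and SUDS3 (0.46 and 0.69), against 20.8% of all genes called higher. SAP30, a subunit of the SIN3 complex, fell in MM1S at 6 h to 9.26 ± 6.60 FPKM with YKL, against 39.1 ± 2.27 with DMSO (-2.15 ± 0.36, limma adjusted p 0.000807, -1.72 rescaled). It was the only gene of the list called there as deposited, where 10% of all genes were called lower.

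Regulators of MYC protein stability were listed as 15 genes. PIM1, a kinase that stabilises MYC, fell at 6 h in both lines, to 17.1 ± 2.33 FPKM with YKL against 36.1 ± 1.36 with DMSO in H929 (-1.05 ± 0.26, limma adjusted p 0.0312, -0.84 rescaled) and to 39.3 ± 10.3 FPKM with YKL against 96.9 ± 22.2 with DMSO in MM1S (-1.29 ± 0.26, adjusted p 0.00335, -0.83 rescaled). AURKA, a mitotic kinase that shields MYCN from degradation, fell at 24 h, by 2.23 in H929 (adjusted p 3.92e-06, -1.39 rescaled) and by 1.76 in MM1S (adjusted p 0.000185, -1.62 rescaled). In H929 at 24 h, 10 of the 15 fell, against 35.4% of all genes, and rescaled 4 fell and 2 rose, against 12.5% lower and 20.8% higher. KIAA1524 (CIP2A) and SET, inhibitors of the phosphatase that acts on MYC, were among those that fell (-1.38 and -1.40, -0.74 and -0.56 rescaled). In MM1S, 1 fell at 6 h and 2 at 24 h, against 10% and 6.77% of all genes. Rescaled, 1 fell and 1 rose at 6 h (7.21% lower and 8.25% higher) and 2 fell and 4 rose at 24 h (13.3% and 14.4%). FBXW7, the ubiquitin ligase subunit that recognises MYC and was picked here for that role after the values were seen, was called lower in H929 at 24 h (-0.78) but not rescaled (0.03), and higher in MM1S at 24 h only rescaled (0.49, adjusted p 0.0267).

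Many textbook MYC-induced genes fell under YKL in both lines, also in H929, where MYC itself was near the floor of these 3′ end values. Of 38 tested (of 39 listed), none was higher in any YKL comparison on either scale. In H929, 3 fell at 6 h (12 rescaled) and 36 at 24 h (31 rescaled), and in MM1S 21 fell at 6 h (19 rescaled) and 12 at 24 h (21 rescaled). The median log2 change of the list was -0.48, -1.71, -0.94 and -0.67 in these 4 comparisons, beside -0.06, -0.46, -0.29 and -0.12 for all genes, of which 1.16%, 35.4%, 10% and 6.77% were called lower. Rescaled, the list's medians were -0.29, -0.88, -0.50 and -0.46, beside 0.07, 0.13, 0.05 and 0.05, with 4.19%, 12.5%, 7.21% and 13.3% of all genes lower. Over all settings tried, the 4 counts ran over 0 to 15, 31 to 37, 10 to 30 and 4 to 21. Many of these genes serve cell growth in general and have other regulators than MYC.

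CDC25A, the phosphatase that starts S phase, fell in H929 at 24 h to 5.96 ± 2.13 FPKM with YKL against 55.0 ± 5.49 with DMSO (-3.05 ± 0.26, -2.25 rescaled). In MM1S it fell at both times, to 5.68 ± 0.958 FPKM with YKL against 19.3 ± 1.74 with DMSO at 6 h (-1.61 ± 0.26, -1.19 rescaled), and to 1.23 ± 0.332 against 9.35 ± 2.54 at 24 h (-2.19 ± 0.26, -2.29 rescaled). NCL, the nucleolar protein nucleolin, fell in MM1S at 6 h to 161 ± 10.0 FPKM with YKL, against 414 ± 17.1 with DMSO (-1.36 ± 0.26, -0.89 rescaled). RCC1, the exchange factor of Ran, fell in H929 and in MM1S at both times, and each call held rescaled. NPM1 and PTMA, abundant nuclear proteins, fell in H929 at 24 h by 2.44 and 2.65 (-1.60 and -1.81 rescaled), and LDHA, lactate dehydrogenase, fell in MM1S at 24 h by 1.87 (-1.62 rescaled).

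With DMSO, MYC-induced genes stood higher in H929, the line with MYC under 1 FPKM in these 3′ end values. A MYC transcript with another 3′ end could be missed there, so these values do not show that H929 lacks MYC. As deposited, 37 of 38 were higher in H929 than in MM1S and 1 lower, with a median difference of 1.83, beside 0.71 for all genes, of which 61.7% were called higher. Rescaled, 29 were higher and 1 lower with a median of 0.61, beside -0.18 for all genes, of which 26.6% were called higher and 41.1% lower. NPM1 averaged 2286 ± 433 FPKM in H929 and 514 ± 42.2 in MM1S at 6 h. SRM, spermidine synthase, chosen after its values were seen, averaged 835 ± 75.7 FPKM in H929 and 234 ± 41.6 in MM1S at 6 h (2.64, 1.42 rescaled). The exception on both scales was CCND2, cyclin D2, at 2.11 ± 0.459 FPKM in H929 and 79.6 ± 6.30 in MM1S at 6 h (-4.41 ± 0.21, -5.30 rescaled).

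**Figure D4:**
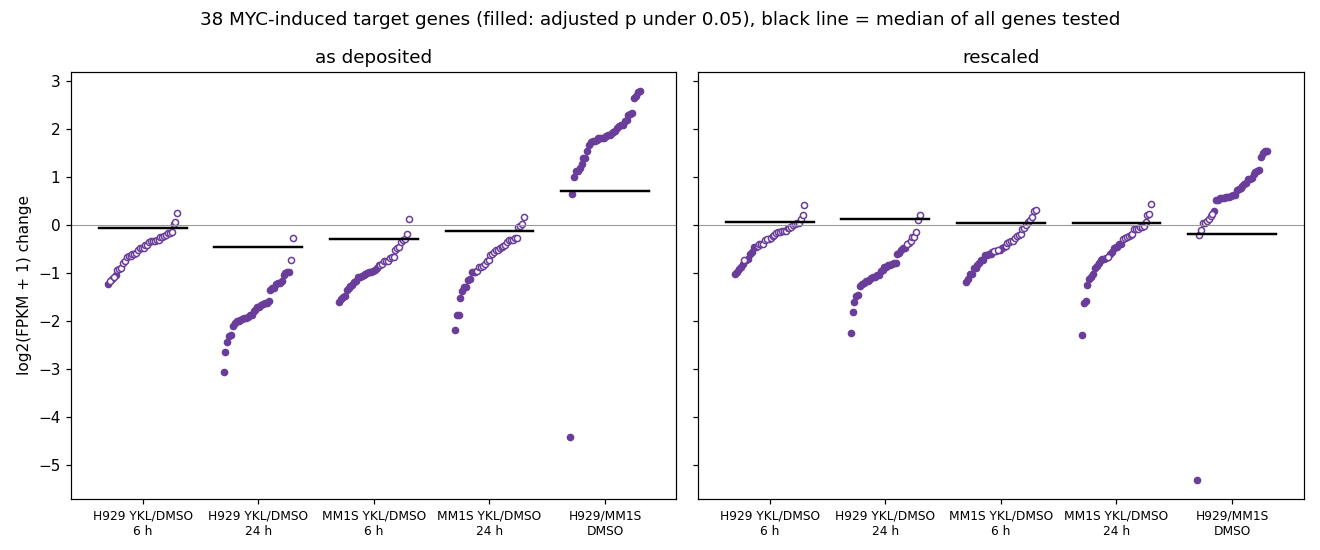
Log2(FPKM + 1) change of the 38 MYC-induced genes tested, ordered within each comparison, as deposited (left) and rescaled (right), filled where limma's adjusted p is under 0.05, with the median of all genes as a black line. The list's median under YKL lies below that of all genes in each comparison (-1.71 against -0.46 in H929 at 24 h), and above it between H929 and MM1S with DMSO (1.83 against 0.71), where CCND2 is the lone low point.

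None of the listed genes that MYC is known to repress rose as deposited. Of 8 tested (of 9 listed), 3 fell in H929 at 24 h, a share near the 35.4% of all genes called lower there. They were the stress factor DDIT3 (-1.68, -0.87 rescaled), the tumour suppressor candidate NDRG2 (-1.24, -0.57 rescaled) and the differentiation factor CEBPA (-0.72, 0.06 rescaled). Of these, only DDIT3 was also called rescaled. None of the 8 was called in the other YKL comparisons as deposited. Rescaled, 2 rose and 1 fell in H929 at 6 h (5.11% of all genes higher and 4.19% lower), and 3 rose and 1 fell at 24 h (20.8% and 12.5%). The 3 that rose at 24 h were CDKN1B (0.81), GADD45A (0.76) and NDRG1 (1.12). In MM1S, none was called rescaled at 6 h (15.5% of all genes in either direction), and 1 rose and 2 fell at 24 h (14.4% and 13.3%).

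The genes whose rescaled values ran most like MYC over the 24 libraries were NKD2 (Pearson r 0.992), TMEM63A (0.986) and KDELC1 (0.983). Within lines, r with MYC was 0.066, 0.183 and -0.249 over the 12 H929 libraries and 0.880, 0.880 and 0.576 over the 12 MM1S libraries. MYC in H929 is close to the floor, which limits what r can show there. Those most like MAX were HEIH (0.910), GOLPH3 (0.910) and TAF1C (0.898), with r of 0.851, 0.825 and 0.632 within H929 and 0.816, 0.801 and 0.882 within MM1S. As deposited, NKD2, XKR8 and KDELC1 led for MYC (0.982 to 0.988, and 0.967, 0.957 and 0.924 within MM1S) and DDX27, SUPT16H and GCN1 for MAX (0.981 to 0.983). The 24 libraries differ in line, treatment and time, and all genes were measured across these same differences. Deposited values of all genes in a library also share its scale. The r values therefore describe these libraries and carry no test.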

How the data were processed

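RNA from trizol lysates went into QuantSeq 3′ libraries, which read transcript ends, per the labels' protocols. The authors deposited FPKM per gene, made with HISAT2, Cuffnorm and the hg19 build per the submitters' processing notes; versions, and how the ERCC spike-ins listed in the files were used, are not given in the sources used here. No counts were given, so depth is unknown. Dividing by length suits 3′ reads poorly but cancels in ratios of a gene between groups.

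From these values, 26249 genes of 26341 entries (92 spike-ins) were taken. The 12418 genes that reached 1 FPKM in 3 or more of the 24 libraries were tested as log2(FPKM + 1) with limma 3.58.1 in R 4.3.3 (trended variance, 8 group means in 1 fit, 16 residual degrees of freedom), with Benjamini-Hochberg adjustment over all genes within each of 11 comparisons. A fold change on this scale understates changes of low genes. Rescaling divided each library by its median ratio to reference genes (geometric mean of at least 5 FPKM). No 2 libraries were identical. The fit was tested on simulated data.

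The members and gene lists were chosen with earlier results of these data known. All members, MGA, MLXIP and MLXIPL are named, and from each list up to 3 called genes of smallest p per YKL comparison; PVT1, ARRDC4, FBXW7, SRM, CCND2, some corepressor-list genes called only rescaled and the cell type markers are additions. Alternatives were rescaling, another pseudocount, other filters, the replicate block, a fit of the compared groups, and leaving out libraries.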

Additional observations from a re-analysis of the deposited data

Results flagged for a closer look

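The response of MLX to YKL in H929 differed between the times, by -1.53 ± 0.39 on the log2 scale (24 h minus 6 h, limma adjusted p 0.0238). MLX averaged 16.2 ± 5.22 FPKM with YKL and 51.7 ± 8.29 with DMSO at 24 h, and 44.7 ± 4.14 FPKM with YKL and 48.7 ± 2.92 with DMSO at 6 h (SD, n = 3 each). The ratio of gene to spike-in signal was 4.53 to 8.98 with YKL and 12.6 to 14.4 with DMSO at 24 h, against 10.5 to 15.8 with YKL and 14.1 to 17.1 with DMSO at 6 h. On the rescaled values, which do not carry that ratio, the difference was -0.90 ± 0.21 (adjusted p 0.00746). The call was lost in 5 of 12 fits without 1 library. Groups of 3 libraries are too small for a check of outlying samples.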

How the results depend on the processing

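Rescaling changed the most. It gave 4 members called in H929 at 6 h, 3 in MM1S at 24 h, 3 for the line difference at 24 h, 2 for the time difference in each line and 4 for MM1S DMSO over time. Together with leaving out the 2 libraries of uneven spike-ins, a setting chosen after seeing the data, it gave 5, 5, 3, 2 (H929), 3 (MM1S) and 1 in the same order, and 2 in MM1S at 6 h. Leaving out those libraries alone gave 4 for MM1S DMSO over time. MM1S at 6 h had 0 called with a pseudocount of 0.1 or no filter, and 2 in a fit of its own groups; such fits gave 0 in MM1S at 24 h and 3 for MM1S DMSO over time.

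These called or rescaled-called changes turned their sign, given as rescaled and then rescaled without the uneven libraries. In H929 at 24 h, MXD3 became 0.71 in both and MXI1 0.075 in both. Between H929 and MM1S with DMSO, MXD1 became -0.45 and -0.35, MXI1 -0.37 and -0.39, and MNT -0.16 and -0.093. In MM1S DMSO over time, MAX became 0.21 and 0.31, MXD3 0.13 and 0.21, and MXI1 0.40 and 0.44, with MNT at 0.033 when rescaled and MXD4 at 0.16 in the second setting only. The cause was not tested.

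Without 1 replicate at a time, the counts of members called ran over 0 to 0 in H929 at 6 h, 4 to 5 in H929 at 24 h, 0 to 1 in MM1S at 6 h, 1 to 2 in MM1S at 24 h, 0 to 0 and 0 to 2 for the line difference at 6 h and 24 h, 0 to 2 and 0 to 1 for the time difference in H929 and MM1S, 5 to 6 between the lines, 0 to 0 in H929 DMSO and 3 to 7 in MM1S DMSO over time. Libraries with the same number did not deviate together (r of -0.110 to 0.180, the own number best in 2 of 12). No pairing by number was thus detected, but groups of 3 libraries cannot exclude it, and the labels do not say. The replicate block changed no call of a member in any comparison and left 5 called in H929 at 24 h and 1 in MM1S at 6 h. At 5 FPKM, MYCL, MXD1 and MNT drop out. Without counts, the precision of low genes such as MYC in H929, MYCL and MYCN cannot be given.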
